A study of Mus musculus with 15 samples.

Results

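The genes described here are 35 genes of DNA replication and of the passage from G1 into S phase, read in 15 mouse liver libraries. They were listed by name, no level or fold change entering the rule, though earlier results of these data were known when they were chosen. All 35 were found among the 23284 gene symbols of the count table. There were 6 tumours from mice with Hmgb1 deleted in liver (Hgmb1Dhep, floxed alleles with Albumin-Cre), 6 tumours from floxed control mice without the Cre (Hgmb1fl/fl), and 3 normal livers of C57Bl/6 mice. Both tumour groups had received the mutagen DEN at 25 mg/kg into the abdomen on day 15 after birth, then the liver toxin CCl4 at 0.5 ul/g in corn oil each week for 15 weeks from week 8. No treatment is named for the normal livers, and the strain of the floxed mice and the age at sampling are not given. Tumour, treatment and strain therefore cannot be told apart in a comparison with normal liver. Albumin-Cre acts in hepatocytes and bile duct cells, so other cells of a tumour keep Hmgb1. The labels do not say whether tumours came from separate mice, so p-values refer to the spread among these samples, which may be partly technical.

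Before a cell copies its genome, the origin recognition complex, CDC6 and CDT1 load the ring of MCM2 to MCM7 onto DNA in G1, and GINS and MCM10 help turn it into a working helicase at the start of S phase. Cyclin E with its kinase and the E2F factors drive that entry, and E2F factors raise transcription of many replication genes. Adult hepatocytes rarely divide, but they re-enter the cycle after injury and in tumours.

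Levels are in CPM, which here are read counts brought to 1 depth by TMM factors over all 15 libraries. Depth was 18973246 to 26293378 counts in Hmgb1-deleted tumours, 20191452 to 30929442 in floxed tumours and 23193714 to 26997782 in normal livers, and a gene with 0 counts could still lie at up to 0.11 to 0.169 CPM (3 counts, counting error only). Hmgb1 had 9.59 to 17.8 CPM in Hmgb1-deleted tumours, below all floxed tumours at 23.3 to 31.8 CPM, and normal livers had 19.1 to 30.7 CPM (Hmgb1-deleted against floxed tumours, log2 fold change -0.90 ± 0.14 SE, edgeR quasi-likelihood adjusted p = 0.00509). On the first principal component of all genes, with 47.5% of the variance, Hmgb1-deleted tumours lay at -23.6 to 26.0, floxed tumours at -55.1 to -34.8 and normal livers at 90.4 to 91.1. Hmgb1-deleted tumours 3, 4 and 6 were nearest to the normal livers on it, at 20.01, 26.0 and 8.59. On the second component, numbers 2 and 5 of the Hmgb1-deleted tumours were far from all others, at 64.6 and 70.2. The 9 hepatocyte markers were present in every library and summed to 68820 to 170600 CPM in Hmgb1-deleted tumours, 105900 to 276700 CPM in floxed tumours and 114800 to 142500 CPM in normal livers. Singly, 2 of 9 were lower and none higher in Hmgb1-deleted tumours against normal liver (median log2 fold change -1.18), and 5 of 9 were lower and 1 higher in floxed tumours against normal liver (median -1.74).

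Some of the 35 replication genes were higher in tumours than in normal liver, and 1 of the 35 differed between Hmgb1-deleted and floxed tumours. In Hmgb1-deleted against floxed tumours, 0 of 35 were higher and 1, the cyclin E gene Ccne1, was lower (adjusted p under 0.05, from edgeR's quasi-likelihood test with Benjamini-Hochberg adjustment over all tested genes), where 4.45% of all 13433 tested genes were higher and 3.33% lower. In floxed tumours against normal liver 14 were higher and 3 lower, where 24.9% of all 13784 tested genes were higher and 23.8% lower. In Hmgb1-deleted tumours against normal liver 11 were higher and 0 lower, where 18.1% were higher and 16.6% lower. The same shares over all tested genes stand against the counts for role groups and other lists. At an unadjusted p under 0.05 there were 4 of 35 genes in Hmgb1-deleted against floxed tumours (3261 of 13433 genes tested), 20 of 35 in floxed tumours against normal liver (7732 of 13784) and 20 of 35 in Hmgb1-deleted tumours against normal liver (6520 of 13784). DESeq2 called 2 of the 35 higher in Hmgb1-deleted against floxed tumours and 0 lower in Hmgb1-deleted tumours against normal liver. The median log2 fold change of the 35 was 0.08 in Hmgb1-deleted against floxed tumours (0.02 over all tested genes), 0.59 in floxed tumours against normal liver (0.06 over all) and 0.69 in Hmgb1-deleted tumours against normal liver (0.05 over all). Both comparisons with normal liver use the same 3 livers. In bulk tissue, a change in the number of cells of a type and a change in RNA per cell cannot be told apart, and the share of cells in S phase was not measured.

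**Figure D1:**
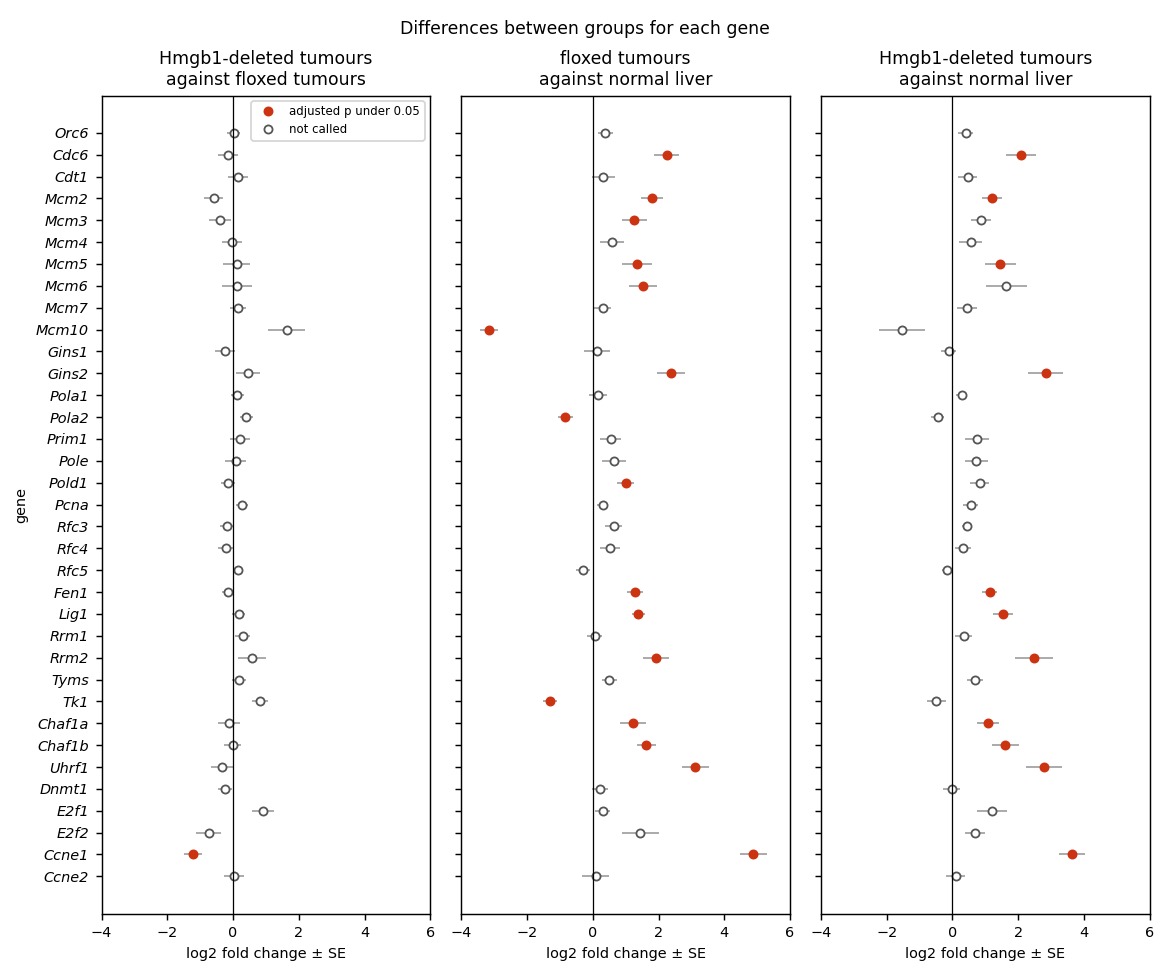
Log2 fold change (x axis, ± SE) of each of the 35 genes (y axis, by role) in the 3 comparisons, edgeR quasi-likelihood fits; filled points have an adjusted p under 0.05. Ccne1 is the single filled point in Hmgb1-deleted against floxed tumours, and Mcm10, Pola2 and Tk1 are the 3 called genes left of 0 in floxed tumours against normal liver.

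Promoter sequences of the members were read from RefSeq (build GRCm38.p6, 250 bases before to 50 after each transcription start) and searched on both strands for 4 forms of the E2F motif, TTTGGCGC, TTTCCCGC, TTTGCCGC and TTTCGCGC, whose matches may overlap. A promoter was found for 30 of the 35 genes, all but Mcm4, Gins1, Gins2, Pole and Ccne2. Of these 30, 13 held a match (43.3%), against 510 of 15701 genes of the count table with a promoter (3.25%), 11 of 41 other replication genes (26.8%) and 1 of 26 mitosis genes (3.85%). Among members higher in floxed tumours against normal liver 7 of 13 held a match, among the 3 lower members 0, and among those not called 6 of 14. A match is a stretch of letters, not a measured binding site. Only these 4 exact forms were searched, so a promoter without a match may still hold other forms of the motif. The 250 bases before the start are shown 5′ to 3′ on the gene's strand for 3 called genes with a match, with the match in capitals, and for Ccne1 and Mcm10, the genes with the largest rise and fall against normal liver, which held none. The positions are chr11:98907901-98908150 for Cdc6 (plus strand), chr1:128359706-128359955 for Mcm6 (minus strand), chr17:56304063-56304312 for the second listed start of Uhrf1 (plus strand), chr7:38107491-38107740 for Ccne1 (minus strand) and chr2:5012792-5013041 for Mcm10 (minus strand).
Cdc6: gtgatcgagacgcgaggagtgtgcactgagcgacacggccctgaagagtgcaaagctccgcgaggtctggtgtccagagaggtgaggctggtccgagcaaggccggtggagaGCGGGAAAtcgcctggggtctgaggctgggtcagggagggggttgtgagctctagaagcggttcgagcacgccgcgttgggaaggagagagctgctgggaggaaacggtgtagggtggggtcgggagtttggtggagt
Mcm6: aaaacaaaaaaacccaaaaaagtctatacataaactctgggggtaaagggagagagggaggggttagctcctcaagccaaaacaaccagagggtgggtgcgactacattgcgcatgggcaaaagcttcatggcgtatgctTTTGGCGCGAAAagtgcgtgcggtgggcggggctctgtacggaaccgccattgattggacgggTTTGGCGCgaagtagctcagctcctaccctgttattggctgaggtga
Uhrf1: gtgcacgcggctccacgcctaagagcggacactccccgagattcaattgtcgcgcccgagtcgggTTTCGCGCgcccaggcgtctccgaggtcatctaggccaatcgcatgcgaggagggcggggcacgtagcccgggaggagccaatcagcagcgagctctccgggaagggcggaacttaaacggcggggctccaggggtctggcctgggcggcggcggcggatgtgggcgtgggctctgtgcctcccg
Ccne1: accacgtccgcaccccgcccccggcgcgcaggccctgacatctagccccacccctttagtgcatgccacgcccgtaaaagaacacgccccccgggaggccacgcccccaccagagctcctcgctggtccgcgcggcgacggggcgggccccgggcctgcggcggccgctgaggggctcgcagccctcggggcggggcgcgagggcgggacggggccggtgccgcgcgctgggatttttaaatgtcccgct
Mcm10: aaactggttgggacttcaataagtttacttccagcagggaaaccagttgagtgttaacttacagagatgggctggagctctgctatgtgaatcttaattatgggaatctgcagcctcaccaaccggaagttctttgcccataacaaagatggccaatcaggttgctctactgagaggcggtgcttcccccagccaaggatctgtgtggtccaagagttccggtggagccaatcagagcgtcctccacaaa
Mcm6 carries 3 matches in this stretch, 2 of which overlap in 1 run of capitals, and Cdc6 carries 1 match on the opposite strand, read here as GCGGGAAA.

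Licensing and helicase genes were the largest role group, and 6 of 12 were higher and 1 lower in floxed tumours against normal liver (median log2 fold change 0.92). In Hmgb1-deleted tumours against normal liver 4 of 12 were higher and none lower (median 0.70), and between the tumour groups 0 of 12 were called (median 0.06). Cdc6, whose product loads the helicase ring, had 0.637 CPM at the lowest, 1.13 at the median and 2.24 at the highest in Hmgb1-deleted tumours, 1.09, 1.16 and 1.99 CPM in floxed tumours, and 0.244, 0.367 and 0.246 CPM in the 3 normal livers, which rests on 5 to 9 counts per normal liver. Every tumour of both groups lay above every normal liver, and the tumour groups overlapped. The log2 fold change of Cdc6 was 2.25 ± 0.39 in floxed tumours against normal liver (adjusted p = 0.00098), 2.08 ± 0.46 in Hmgb1-deleted tumours against normal liver (adjusted p = 0.00899) and -0.16 ± 0.31 between the tumour groups (adjusted p = 0.80).

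Among the ring subunits, Mcm2 (log2 fold change 1.79 ± 0.34), Mcm3 (1.26 ± 0.38), Mcm5 (1.35 ± 0.45) and Mcm6 (1.53 ± 0.43) were higher in floxed tumours against normal liver, at adjusted p of 0.00176, 0.0193, 0.0297 and 0.0139. Mcm4 at 0.59 ± 0.36 and Mcm7 at 0.30 ± 0.26 were not called. In Hmgb1-deleted tumours against normal liver Mcm2 (1.21 ± 0.29, adjusted p = 0.0135) and Mcm5 (1.46 ± 0.46, adjusted p = 0.0367) were called. There Mcm3 was at 0.86 ± 0.31 (adjusted p = 0.0531) and Mcm6 at 1.64 ± 0.62 (adjusted p = 0.0647). DESeq2 called both of these, upper-quartile scaling called Mcm3, and the fit of all 15 samples and the replicate block called Mcm6, while Mcm5 lost its call with the replicate block (adjusted p = 0.0562). Whether the subunits differ from each other was not tested. With 1 library fewer, some adjusted p crossed the threshold while the log2 fold changes kept their direction. In floxed tumours against normal liver the call was lost for Mcm3 without any 1 normal liver (1.23 to 1.27, highest adjusted p 0.0683), for Mcm5 without floxed tumour 4 or any 1 normal liver (1.24 to 1.45, highest 0.104) and for Mcm6 without normal liver 3 (1.23, 0.0628). In Hmgb1-deleted tumours against normal liver it was lost for Mcm2 without normal liver 1 or 3 (1.201 and 1.122, highest 0.0561) and for Mcm5 without Hmgb1-deleted tumour 1 or 2 or any 1 normal liver (1.35 to 1.55, highest 0.113).

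Gins2, a subunit of the GINS part of the active helicase, was higher in floxed tumours against normal liver (log2 fold change 2.38 ± 0.41, adjusted p = 0.00103) and in Hmgb1-deleted tumours against normal liver (2.83 ± 0.53, adjusted p = 0.00519). Its partner Gins1 was not called, at 0.14 ± 0.39 in floxed tumours and -0.11 ± 0.23 in Hmgb1-deleted tumours. Orc6, a subunit of the origin recognition complex, was at 0.39 ± 0.23 in floxed tumours and 0.40 ± 0.22 in Hmgb1-deleted tumours against normal liver, and was not called. Cdt1, the loading partner of CDC6, was not called either, at 0.32 ± 0.35 in floxed tumours and 0.46 ± 0.30 in Hmgb1-deleted tumours.

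**Figure D2:**
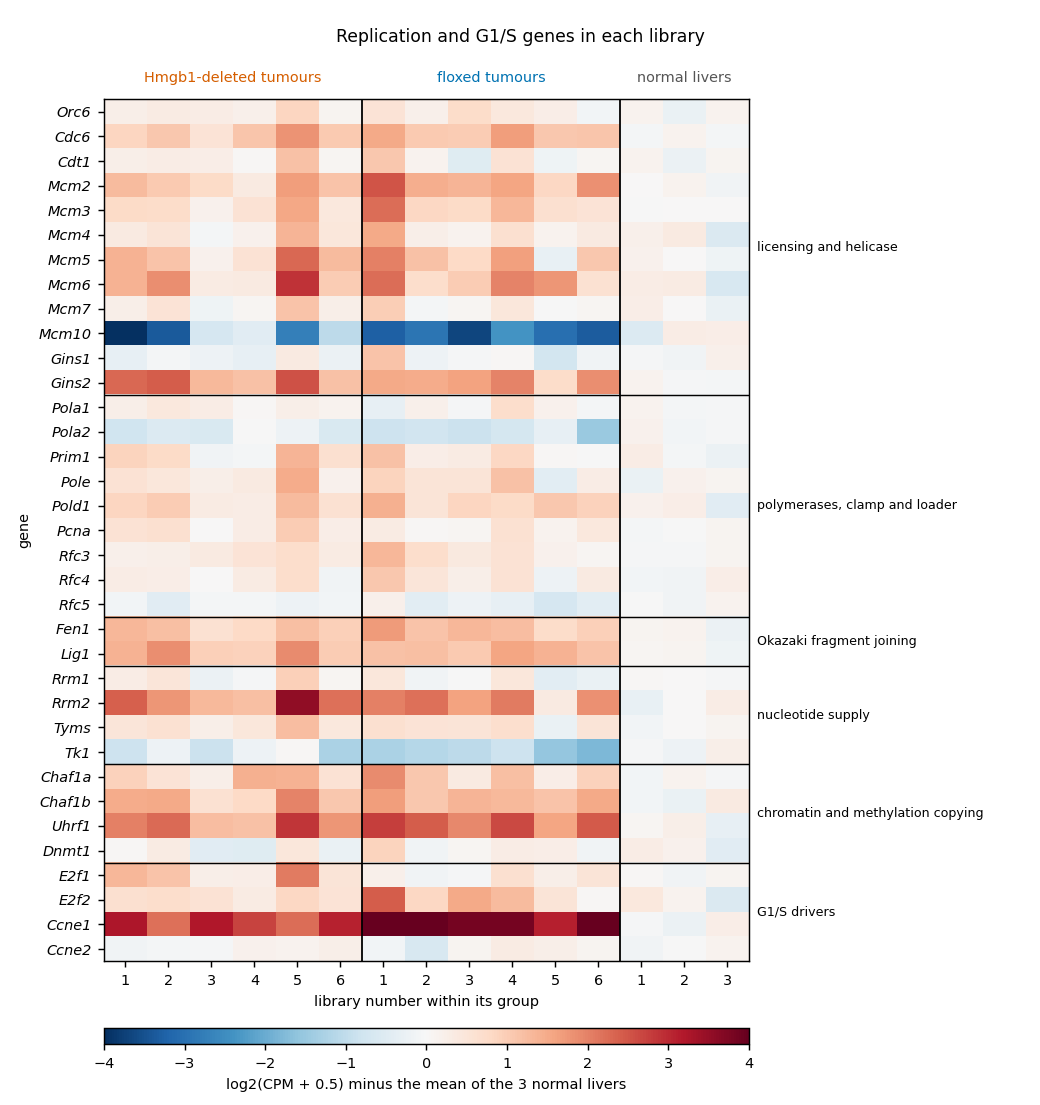
Log2(CPM + 0.5) of each gene (rows, by role) in each library (columns), minus the mean of the 3 normal livers; red is above and blue below them. Uhrf1 and Ccne1 are red in all 12 tumours, Mcm10 is blue in all floxed tumours, and Hmgb1-deleted tumour 5 is the reddest column of its group.

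Mcm10, which binds the helicase and the primase polymerase at the start of synthesis, was the 1 licensing and helicase gene called lower in floxed tumours against normal liver. It had 5.42, 8.51, 57.4, 67.8, 13.5 and 44.6 CPM in Hmgb1-deleted tumours 1 to 6, then 6.8 CPM at the lowest, 10.1 at the median and 17.1 at the highest in floxed tumours, against 63.1, 112.7 and 110.7 CPM in normal livers. All floxed tumours lay below all normal livers (log2 fold change -3.15 ± 0.27, adjusted p = 1.75e-05). Hmgb1-deleted tumours 1, 2 and 5 lay within or just below the floxed range, and 3, 4 and 6 lay above every floxed tumour, with tumour 4 above the lowest normal liver. Their difference was 1.63 ± 0.55 against floxed tumours (adjusted p = 0.0908) and -1.54 ± 0.70 against normal liver (adjusted p = 0.111), neither called. Against floxed tumours it turned to -0.24 (adjusted p = 0.731) without Hmgb1-deleted tumours 3, 4 and 6, and was called at 2.0 (adjusted p = 0.033) with tumours 2 and 5 left out, at 1.85 (adjusted p = 0.0347) with tumour 1 left out, and by DESeq2 (adjusted p = 0.0244).

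Of the polymerases, clamp and clamp loader, 1 of 9 was higher and 1 lower in floxed tumours against normal liver (median 0.52), 0 of 9 were called in Hmgb1-deleted tumours against normal liver (median 0.44) and 0 of 9 between the tumour groups (median 0.13). Of all tested genes, 24.9% were higher and 23.8% lower in floxed tumours against normal liver, and 18.1% and 16.6% in Hmgb1-deleted tumours. Pold1, the catalytic subunit of polymerase delta, had 5.49, 7.60 and 11.3 CPM at the lowest, median and highest in Hmgb1-deleted tumours, 6.52, 8.57 and 12.7 CPM in floxed tumours, and 5.0, 5.42 and 3.10 CPM in normal livers. Every tumour of both groups lay above every normal liver. The log2 fold change was 1.0 ± 0.25 in floxed tumours (adjusted p = 0.00837) and 0.83 ± 0.30 in Hmgb1-deleted tumours (adjusted p = 0.0554, not called), each against normal liver. In Hmgb1-deleted tumours it was called by DESeq2 (adjusted p = 0.0288), in the fit of all 15 samples (0.0367), with upper-quartile scaling (0.0346) and with the replicate block (0.041).

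Pola2, the regulatory subunit of the primase polymerase, was lower. It had 6.77, 8.00 and 12.2 CPM at the lowest, median and highest in Hmgb1-deleted tumours, 4.02, 6.79 and 9.56 CPM in floxed tumours, and 13.7, 11.2 and 11.9 CPM in normal livers. Floxed tumours lay below all normal livers (-0.84 ± 0.23, adjusted p = 0.013), while Hmgb1-deleted tumours overlapped them (-0.45 ± 0.19, adjusted p = 0.0899). The call in floxed tumours was lost without normal liver 1 (adjusted p = 0.0598) and when libraries were scaled by their totals alone. The other 7 genes were not called in either comparison with normal liver. In floxed tumours the catalytic subunit Pola1 was at 0.16 ± 0.27, the primase Prim1 at 0.54 ± 0.32, the polymerase epsilon gene Pole at 0.65 ± 0.37 and the sliding clamp Pcna at 0.30 ± 0.17. The clamp loader genes Rfc3, Rfc4 and Rfc5 were at 0.63 ± 0.27, 0.52 ± 0.30 and -0.30 ± 0.21. In Hmgb1-deleted tumours against normal liver Rfc3 was at 0.44 ± 0.16 (adjusted p = 0.0502), with every tumour above every normal liver. There DESeq2, upper-quartile scaling, library totals and a minimum of 1 CPM called it. In floxed tumours upper-quartile scaling, the fit of all 15 samples and the replicate block called it. Pcna, in wide use as a marker of dividing cells, had 9.45 to 19.4 CPM in Hmgb1-deleted tumours and 9.55 to 14.4 CPM in floxed tumours, overlapping normal livers at 8.69 to 10.1 CPM. In Hmgb1-deleted tumours against normal liver Pcna was at 0.55 ± 0.23 (edgeR quasi-likelihood adjusted p = 0.0816). Upper-quartile scaling called Pcna higher in both tumour groups against normal liver.

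Both genes that finish the lagging strand were higher in both tumour groups against normal liver, and neither differed between the tumour groups by a call. Lig1, the ligase that joins Okazaki fragments, had 7.26, 9.04 and 14.8 CPM at the lowest, median and highest in Hmgb1-deleted tumours, 8.00, 8.84 and 11.7 CPM in floxed tumours, and 3.82, 3.87 and 3.10 CPM in normal livers. Fen1, the nuclease that trims the flaps, had 7.33, 10.5 and 12.4 CPM in Hmgb1-deleted tumours, 8.11, 11.3 and 16.4 CPM in floxed tumours, and 5.04, 5.17 and 3.89 CPM in normal livers. For both genes, every tumour lay above every normal liver. Lig1 changed by 1.38 ± 0.20 in floxed tumours (adjusted p = 0.000317) and 1.54 ± 0.31 in Hmgb1-deleted tumours (adjusted p = 0.00617) against normal liver. Fen1 changed by 1.28 ± 0.23 in floxed tumours (adjusted p = 0.00125) and 1.13 ± 0.22 in Hmgb1-deleted tumours (adjusted p = 0.00562).

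Of the 4 genes of nucleotide supply, Rrm2 was higher and Tk1 lower in floxed tumours. In floxed tumours against normal liver 1 of 4 was higher and 1 lower, and in Hmgb1-deleted tumours 1 of 4 was higher and none lower (medians 0.28 and 0.51). The shares of all tested genes in these comparisons were 24.9% and 18.1% higher, and 23.8% and 16.6% lower. Rrm2, the S-phase subunit of ribonucleotide reductase, had 7.86, 14.2 and 41.9 CPM at the lowest, median and highest in Hmgb1-deleted tumours, 4.19, 13.3 and 16.2 CPM in floxed tumours, and 2.48, 3.18 and 3.94 CPM in normal livers. Every tumour lay above every normal liver (1.91 ± 0.39 in floxed tumours, adjusted p = 0.00259, and 2.48 ± 0.58 in Hmgb1-deleted tumours, adjusted p = 0.0113). The call in Hmgb1-deleted tumours was lost without normal liver 1 or 2 (adjusted p up to 0.0562). The larger subunit Rrm1 was not called, at 0.05 ± 0.21 in floxed tumours and 0.34 ± 0.25 in Hmgb1-deleted tumours. The thymidylate synthase gene Tyms was not called, at 0.50 ± 0.22 in floxed tumours (adjusted p = 0.0865) and 0.67 ± 0.24 in Hmgb1-deleted tumours (adjusted p = 0.0548). Every Hmgb1-deleted tumour lay above every normal liver for Tyms. Upper-quartile scaling called it in both tumour groups, DESeq2 in Hmgb1-deleted tumours and the replicate block in floxed tumours.

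Tk1, the thymidine kinase of the salvage route, was lower in floxed tumours. It had 6.56, 11.7 and 17.1 CPM at the lowest, median and highest in Hmgb1-deleted tumours, 4.41, 6.93 and 9.21 CPM in floxed tumours, and 16.2, 14.4 and 19.6 CPM in normal livers. Every floxed tumour lay below every normal liver (-1.30 ± 0.22, adjusted p = 0.00101), while the Hmgb1-deleted tumours reached into both other groups. They were at -0.50 ± 0.28 against normal liver (adjusted p = 0.194) and 0.81 ± 0.25 against floxed tumours (adjusted p = 0.0656, not called). Against floxed tumours the gene was called by DESeq2 (adjusted p = 0.0274), in a fit of all 15 samples (0.039) and without Hmgb1-deleted tumour 6 (0.034).

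The sources used here do not give the strand setting of the counting, so reads of genes that overlap on opposite strands cannot be told apart. In the GENCODE annotation of build GRCm38, 8 of the 35 genes are overlapped on the opposite strand by a protein-coding gene of the table: Orc6 by Vps35, Mcm7 by Cops6 and Ap4m1, Gins2 by Gse1, Rfc4 by Eif4a2, Rfc5 by Wsb2, Tk1 by Afmid, Chaf1a by Ubxn6 and Ccne2 by Ints8. Fen1 and Lig1 are overlapped on the opposite strand by Tmem258 and Zswim9, protein-coding genes whose symbols were not found in the table. Counting annotated genes of any kind on either strand, 17 of the 35 are overlapped. Afmid, a kynurenine pathway enzyme gene of the liver, had 51.0 to 112 CPM in Hmgb1-deleted tumours, 29.2 to 63.2 CPM in floxed tumours and 150.2 to 180.7 CPM in normal livers. Like Tk1 it was lower in floxed tumours against normal liver (-1.86 ± 0.21, adjusted p = 7.61e-05), and its difference between the tumour groups was 0.81 ± 0.23 (adjusted p = 0.0466). That difference lost its call with RLE scaling (adjusted p = 0.0529), with upper-quartile scaling (0.0508), unfiltered (0.0589) and without most single libraries (up to 0.118, without Hmgb1-deleted tumour 4). Leaving out tumours 3, 4 and 6 of the Hmgb1-deleted group gave 0.44 (adjusted p = 0.263). Mcm10 has no such overlap. The gene beside it on the same strand, Optn, an autophagy receptor gene, had 60.6 to 122 CPM in Hmgb1-deleted tumours, 48.5 to 67.0 CPM in floxed tumours and 130.9 to 140.2 CPM in normal livers (-1.27 ± 0.12 in floxed tumours against normal liver, adjusted p = 3.32e-05). Hmgb1-deleted tumours 3, 4 and 6 had 104.4, 121.7 and 84.25 CPM of Optn, and 1, 2 and 5 had 71.17, 65.47 and 60.55 CPM, the same split as in Mcm10. Between the tumour groups Optn was at 0.60 ± 0.17 (adjusted p = 0.0496). That call was lost with RLE scaling (adjusted p = 0.0588) and without most single libraries (up to 0.123, without Hmgb1-deleted tumour 4). Without tumours 3, 4 and 6 of the Hmgb1-deleted group it was at 0.21 (adjusted p = 0.393). The part of reads from these neighbours in the values of Tk1 and Mcm10 was not tested.

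**Figure D3:**
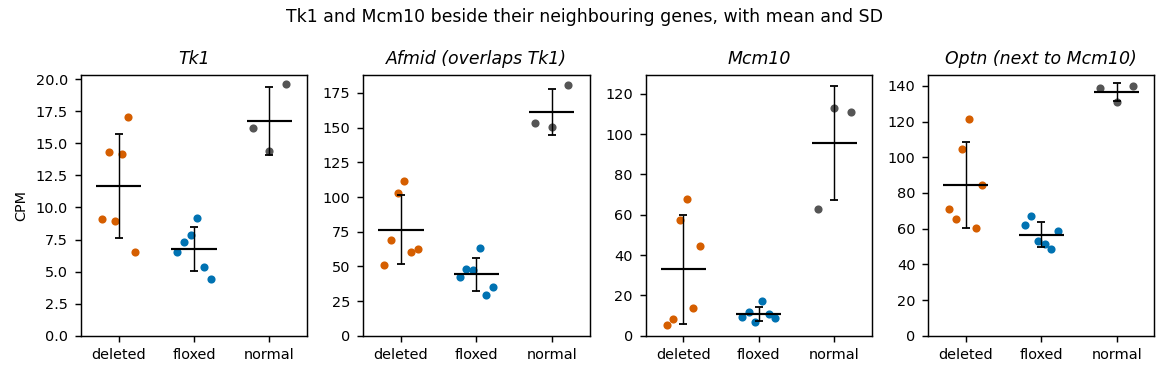
CPM (y axis, from 0) in each library of Tk1 and the overlapping gene Afmid, and of Mcm10 and the adjacent gene Optn; points are libraries, lines are means and bars SD. In all 4 genes the 6 floxed tumours lie below the 3 normal livers.

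Genes that copy chromatin and DNA methylation behind the fork were higher in tumours, 3 of 4 in each comparison with normal liver (medians 1.42 in floxed and 1.34 in Hmgb1-deleted tumours) and 0 of 4 between the tumour groups. Uhrf1, which recognises hemimethylated DNA and brings in the maintenance methyltransferase, had 1.77, 3.25 and 6.87 CPM at the lowest, median and highest in Hmgb1-deleted tumours, 2.47, 4.90 and 6.26 CPM in floxed tumours, and 0.569, 0.692 and 0.295 CPM in normal livers, the last resting on 6 to 17 counts. Every tumour lay above every normal liver, 8.70-fold in the fit for floxed tumours (3.12 ± 0.42, adjusted p = 0.000211) and 6.90-fold for Hmgb1-deleted tumours (2.79 ± 0.55, adjusted p = 0.00597). Between the tumour groups Uhrf1 was at -0.33 ± 0.35 (adjusted p = 0.604).

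Chaf1b, a subunit of the histone chaperone CAF-1, had 2.23, 3.87 and 6.60 CPM in Hmgb1-deleted tumours, 3.31, 4.01 and 5.22 CPM in floxed tumours, and 1.18, 0.978 and 1.82 CPM in normal livers. It too was above normal liver in every tumour (1.63 ± 0.28 in floxed tumours, adjusted p = 0.00109, and 1.61 ± 0.41 in Hmgb1-deleted tumours, adjusted p = 0.0158). The call in Hmgb1-deleted tumours was lost without normal liver 1 or 2 (adjusted p up to 0.0729) and with the replicate block. Its partner Chaf1a was at 1.21 ± 0.39 in floxed tumours (adjusted p = 0.0263) and 1.07 ± 0.33 in Hmgb1-deleted tumours (adjusted p = 0.0332). Both calls were lost without any 1 normal liver (adjusted p up to 0.094 in floxed and 0.121 in Hmgb1-deleted tumours), and that in Hmgb1-deleted tumours also without tumour 1, in the fit of all 15 samples and with the replicate block. Dnmt1, the maintenance methyltransferase that UHRF1 brings in, was not called, at 0.23 ± 0.24 in floxed tumours and -0.02 ± 0.27 in Hmgb1-deleted tumours against normal liver.

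Ccne1 had the largest rise among the 35 genes in both comparisons with normal liver, and it is the gene that was lower in Hmgb1-deleted than in floxed tumours. It encodes cyclin E1, which activates CDK2 at the G1/S boundary. Its level was 9.48, 4.38, 9.35, 6.35, 4.51 and 8.53 CPM in Hmgb1-deleted tumours 1 to 6, with 17.1, 23.2, 14.7, 14.5, 8.74 and 23.3 CPM in floxed tumours 1 to 6, and 0.528, 0.407 and 0.788 CPM in normal livers (10 to 16 counts each). The means were 7.10 ± 2.34 CPM in Hmgb1-deleted tumours (SD, n = 6), 16.9 ± 5.62 CPM in floxed tumours (SD, n = 6) and 0.574 ± 0.195 CPM in normal livers (SD, n = 3). Every tumour lay above every normal liver, and the tumour groups overlapped only through floxed tumour 5, which lay below 2 of the Hmgb1-deleted tumours. Hmgb1-deleted tumours were 2.35-fold lower than floxed tumours (log2 fold change -1.23 ± 0.27, edgeR quasi-likelihood adjusted p = 0.0183). The call held without each library in turn (-1.37 to -1.11, highest adjusted p 0.0431). Against normal liver the fit gave 4.88 ± 0.41 in floxed tumours (29.5-fold, adjusted p = 1.39e-05) and 3.64 ± 0.40 in Hmgb1-deleted tumours (12.5-fold, adjusted p = 0.000729).

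The other cyclin E gene, Ccne2, had 0.512 to 0.82 CPM in Hmgb1-deleted tumours, 0.225 to 0.908 CPM in floxed tumours and 0.528 to 0.739 CPM in normal livers. It was not called in any comparison, and between the tumour groups its log2 fold change was 0.03 ± 0.31. E2f2, an activator E2F, had 2.26, 2.85 and 3.43 CPM at the lowest, median and highest in Hmgb1-deleted tumours, 1.79, 4.06 and 11.2 CPM in floxed tumours, and 2.48, 1.91 and 0.985 CPM in normal livers. All 3 groups overlapped, with normal liver 3 below every tumour and the highest floxed tumours above all other samples. No comparison was called (1.44 ± 0.56 in floxed tumours against normal liver, adjusted p = 0.0544, and -0.75 ± 0.37 between the tumour groups, adjusted p = 0.236). In floxed tumours against normal liver E2f2 was called by DESeq2 (adjusted p = 0.0183), in the fit of all 15 samples (0.0238), with upper-quartile scaling (0.0376), with the replicate block (0.00484) and without floxed tumour 5 (0.0384) or 6 (0.0251).

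E2f1, the other activator E2F of the list, is given here because of its values. It had 11.6, 10.1, 5.15, 5.38, 20.15 and 6.48 CPM in Hmgb1-deleted tumours 1 to 6, against 3.93 CPM at the lowest, 5.16 at the median and 7.01 at the highest in floxed tumours, and 4.47, 3.87 and 4.73 CPM in normal livers. Hmgb1-deleted tumours 1, 2 and 5 were above every floxed tumour, and 3, 4 and 6 were inside the floxed range, the reverse of the split in Mcm10. The difference between the tumour groups was 0.91 ± 0.33 (adjusted p = 0.108). Against normal liver E2f1 was at 1.2 ± 0.45 in Hmgb1-deleted tumours (edgeR quasi-likelihood adjusted p = 0.064), with every tumour above every normal liver. In floxed tumours it was at 0.30 ± 0.24 (adjusted p = 0.324). Neither was called. In Hmgb1-deleted tumours it was called by DESeq2 (adjusted p = 0.0245), in the fit of all 15 samples (0.0323) and with upper-quartile scaling (0.0467).

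**Figure D4:**
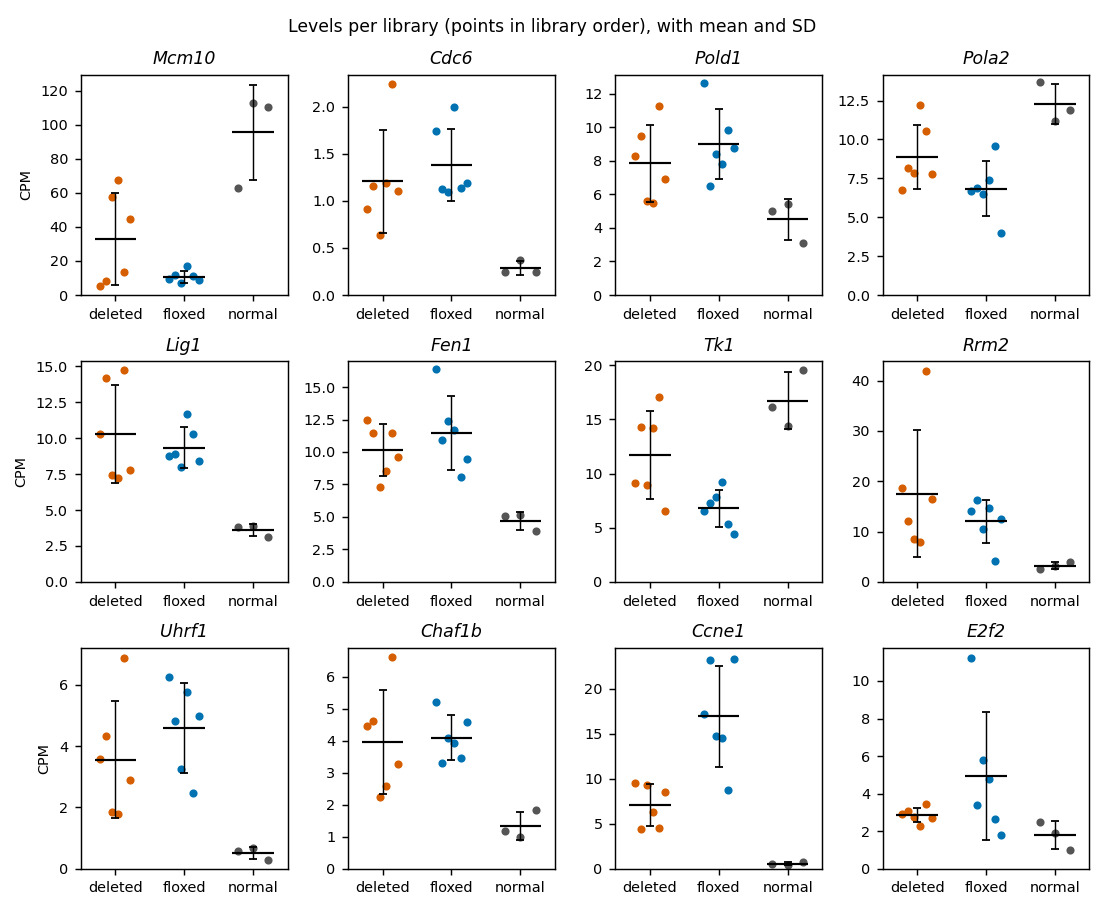
CPM (y axes, each from 0) in each library of the 12 genes given in full, 2 per role; points are libraries in order of their number, lines are means and bars SD. Ccne1 is lower in Hmgb1-deleted than in floxed tumours, at means of 7.10 and 16.9 CPM, and Mcm10 splits the Hmgb1-deleted tumours into 3 low and 3 high libraries.

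Other cell cycle genes were counted from 3 further lists. Of 49 tested other replication genes, 1 was higher and 1 lower in Hmgb1-deleted against floxed tumours, 13 higher and 7 lower in floxed tumours against normal liver, and 11 higher and 5 lower in Hmgb1-deleted tumours against normal liver (medians 0.06, 0.14 and 0.27). Over all tested genes the shares higher and lower were 4.45% and 3.33%, 24.9% and 23.8%, and 18.1% and 16.6% in the same order. Pold4, the small accessory subunit of polymerase delta, averaged 47.4 ± 20.4 CPM in Hmgb1-deleted tumours, 147 ± 37.5 CPM in floxed tumours and 15.1 ± 3.81 CPM in normal livers. It was lower in Hmgb1-deleted against floxed tumours (-1.62 ± 0.28, adjusted p = 0.00653) and higher in floxed tumours against normal liver (3.29 ± 0.28, adjusted p = 1.4e-05), as Ccne1 was, while the catalytic subunit Pold1 was at -0.17 ± 0.21 between the tumour groups. Mcmbp, an MCM-binding protein gene, was higher in Hmgb1-deleted against floxed tumours (0.44 ± 0.10, adjusted p = 0.0196), and this call was lost on library totals and without either set of Hmgb1-deleted tumours that stood apart. Cdc7, the kinase that fires loaded origins, was at 3.04 ± 0.41 in floxed tumours against normal liver (adjusted p = 0.000233). Against normal liver, Hmgb1-deleted tumours had more Donson, a replication fork gene (1.03 ± 0.16, adjusted p = 0.00251), and less Rfc1, the large clamp loader subunit (-0.66 ± 0.10, adjusted p = 0.00255, lost on library totals).

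Of 28 tested other G1/S regulators, 1 was higher and 4 lower in Hmgb1-deleted against floxed tumours, 12 higher and 5 lower in floxed tumours against normal liver, and 7 higher and 3 lower in Hmgb1-deleted tumours against normal liver. For all tested genes the shares higher and lower were 4.45% and 3.33%, 24.9% and 23.8%, and 18.1% and 16.6%, in that order. E2f8, a repressor E2F, averaged 7.88 ± 3.51 CPM in Hmgb1-deleted tumours and 2.21 ± 0.887 CPM in floxed tumours (1.86 ± 0.33, adjusted p = 0.00714). The CDK4/6 inhibitor gene Cdkn2b averaged 10.7 CPM in Hmgb1-deleted tumours, 39.8 CPM in floxed tumours and 0.245 CPM in normal livers, a difference of -1.88 ± 0.34 between the tumour groups (adjusted p = 0.00833), 7.32 ± 0.32 in floxed tumours against normal liver (adjusted p = 5.06e-07) and 5.43 ± 0.68 in Hmgb1-deleted tumours against normal liver (adjusted p = 0.00139). Rbl2, the pocket protein gene of resting cells, was lower in both tumour groups against normal liver, at -1.86 ± 0.19 in floxed tumours (adjusted p = 4.71e-05) and -1.71 ± 0.13 in Hmgb1-deleted tumours (adjusted p = 0.000208).

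All 32 mitosis and G2/M genes were higher in floxed tumours against normal liver (median 2.92) and 31 of 32 in Hmgb1-deleted tumours (median 3.34), where the 35 replication genes had medians of 0.59 and 0.69. Foxm1, the factor that drives many of them, was at 2.99 and Bub1, a spindle checkpoint kinase, at 4.08 in floxed tumours against normal liver, and in Hmgb1-deleted tumours the kinetochore gene Nuf2 was at 4.72 and the cyclin A gene Ccna2 at 3.90. Between the tumour groups 0 of 32 were called by edgeR's quasi-likelihood test (median 0.44, 0 with an unadjusted p under 0.05), with Ect2 at 0.86 ± 0.44 and Kif11, a spindle motor, at 0.70 ± 0.44. Whether the lists differ beyond their genes' spread was not tested.

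**Figure D5:**
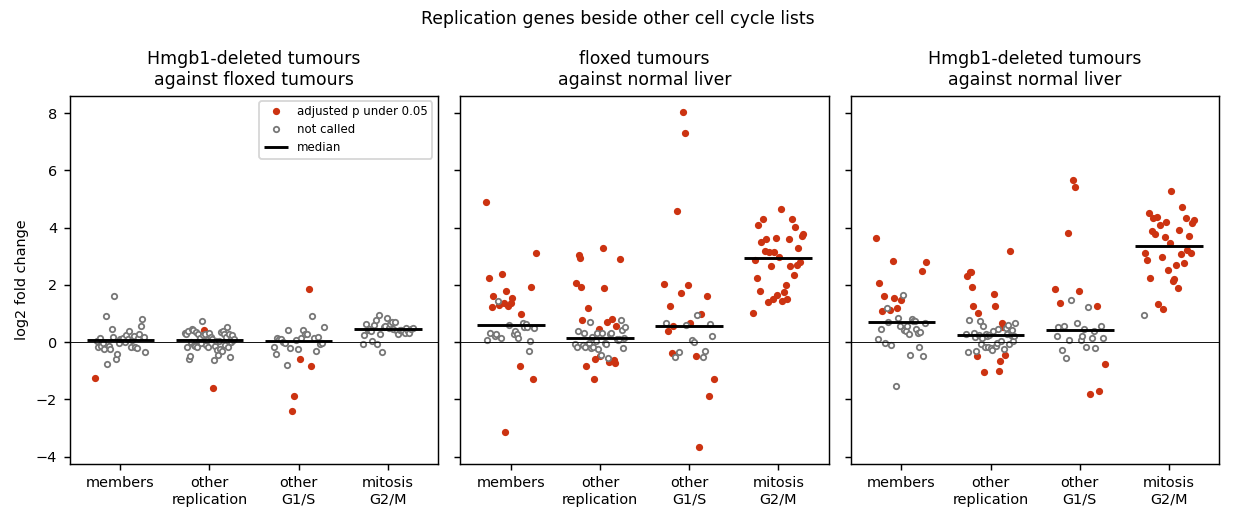
Log2 fold change (y axis) of each gene of 4 lists (x axis) in the 3 comparisons; filled points have an edgeR adjusted p under 0.05. The 35 members spread around medians of 0.59 and 0.69 in the comparisons with normal liver, and the 32 mitosis genes around 2.92 and 3.34.

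The replication genes varied between tumours of a group. Hmgb1-deleted tumour 5 was the highest of its 6 for 27 of the 35 genes, and tumours 3 and 4 were the lowest for 14 and 10. The median log2 difference of the 35 genes from normal liver was 0.59, 0.62, 0.22, 0.32, 1.24 and 0.42 in Hmgb1-deleted tumours 1 to 6, and 1.18, 0.52, 0.39, 0.69, 0.24 and 0.37 in floxed tumours 1 to 6. Among floxed tumours number 1 was the highest for 19 genes and number 4 for 12, and number 5 was the lowest for 15. The mitosis genes gave medians of 3.11, 2.79, 0.94, 1.31, 3.21 and 1.82 in Hmgb1-deleted tumours 1 to 6 and 2.27, 2.33, 1.98, 2.64, 0.72 and 1.96 in floxed tumours 1 to 6, so Hmgb1-deleted tumour 3 and floxed tumour 5 were the lowest of their groups in both. In floxed tumours the order was not the same at the top, with tumour 1 highest in the replication genes and tumour 4 the highest for 26 of the 32 mitosis genes.

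Summed markers of other cell types also varied between the groups, and their part in these values was not tested. Singly, between the tumour groups 1 of 7 macrophage markers was lower in Hmgb1-deleted tumours, and no marker of the other types was called. The 7 macrophage markers summed to 293 to 598 CPM in Hmgb1-deleted tumours, 305 to 563 CPM in floxed tumours and 193 to 272 CPM in normal livers, with 4 of 7 higher in each comparison with normal liver. The 7 T and NK cell markers summed to 5.58 to 16.7 CPM in Hmgb1-deleted tumours, 5.41 to 36.4 CPM in floxed tumours and 3.69 to 6.48 CPM in normal livers, with 5 of 7 higher in Hmgb1-deleted and 4 of 7 in floxed tumours against normal liver. Cholangiocyte markers summed to 205 to 6105 CPM in Hmgb1-deleted tumours, 60.7 to 1768 CPM in floxed tumours and 67.5 to 79.0 CPM in normal livers, and were highest in Hmgb1-deleted tumour 2. Singly, 3 of 5 tested were higher in floxed and 1 of 6 in Hmgb1-deleted tumours against normal liver. Stellate and fibroblast markers summed to 122 to 480 CPM in Hmgb1-deleted tumours, 149 to 1527 CPM in floxed tumours and 106 to 138 CPM in normal livers, and were highest in floxed tumour 5, the floxed tumour with the lowest Ccne1. Of these 7 markers, 1 was higher in floxed tumours against normal liver, and 2 were higher and 1 lower in Hmgb1-deleted tumours. The matched neutrophil markers summed to 10.7 to 18.4 CPM in Hmgb1-deleted tumours, 5.37 to 38.3 CPM in floxed tumours and 3.91 to 5.40 CPM in normal livers, where Mpo was at 0. The matched erythroblast markers, a sign of dividing red cell precursors, summed to 17.9 to 45.2 CPM in Hmgb1-deleted tumours, 8.80 to 48.8 CPM in floxed tumours and 146 to 162 CPM in normal livers, with Hba-a1 and Hbb-b1 at 0 in every library. B cell markers summed to 7.91 to 38.2 CPM in Hmgb1-deleted tumours, 18.9 to 76.6 CPM in floxed tumours and 8.64 to 9.26 CPM in normal livers, and endothelial markers to 112 to 239 CPM in Hmgb1-deleted tumours, 163 to 415 CPM in floxed tumours and 138 to 231 CPM in normal livers. Against normal liver, 1 of 5 B cell and 1 of 6 endothelial markers were higher in each tumour group, and none lower. Neutrophil markers were higher for 4 of 4 tested in floxed and 2 of 4 in Hmgb1-deleted tumours. For erythroblasts, 2 of 2 tested markers were lower in each tumour group.

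Across the 35 genes, libraries of 1 group did not overlap those of the other for 0 genes in Hmgb1-deleted against floxed tumours (2.61% of all tested genes lay wholly above and 2.32% below). In floxed tumours against normal liver 13 genes lay wholly above and 3 below (22.9% and 23.4% of all tested genes), and in Hmgb1-deleted tumours against normal liver 16 lay above and 0 below (18.4% and 19.1%).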

How the data were processed

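Per the labels' protocols, liver RNA was cleaned on columns with a DNase step, mRNA was selected by its poly-A tail, and sequencing libraries came from a TruSeq RNA kit. The authors deposited raw read counts per gene symbol, not normalized, for 15 libraries. The tools were HTSeq 0.6.1, TopHat2 2.1.0, bcl2fastq 1.8.4 and Bowtie2 2.2.4 with build mm9, per the submitters' processing notes. The strand setting, the annotation and the handling of multiply matching reads were not given in the sources used here. Sample labels gave the groups.

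These counts were analysed in R 4.3.3. In every pairwise comparison edgeR 4.0.16 filtered genes (filterByExpr), scaled libraries (TMM) and fitted the quasi-likelihood test with robust dispersions, with group as the only term. A gene was called at a Benjamini-Hochberg adjusted p under 0.05 over all tested genes. Standard errors come from the F statistic, and log2 differences from normal liver in single tumours use log2(CPM + 0.5). The gene-wise test was tested on simulated data. The members and the other lists were chosen with earlier results of these data known. Ticrr and Adgre1 were matched by a synonym, and Ly6g was not matched. Values in each sample are given for the 2 members per role with the smallest p in floxed tumours against normal liver and for members called between the tumour groups, and from each other list the 2 genes with the smallest p per comparison are named. The values of Mcm2, Mcm3, Mcm5, Mcm6, Gins2, Pcna, E2f1, Afmid and Optn were given more fully after they were seen. Any 2 libraries of a group differed by more than sampling noise (lowest chi-square/df 27.9), so none was a repeat reading of another. Each was counted as 1 sample, but this check cannot tell whether tumours came from separate mice. The labels give the same replicate numbers to each group, but same-numbered samples deviated together at correlations of only -0.24 to 0.21, so the numbers were not taken as pairs. Results were recomputed with DESeq2 1.42.0, with upper-quartile or RLE scaling, on library totals alone, unfiltered or with a minimum of 1 CPM, in 1 fit of all 15 samples, with a replicate block, and leaving out each library. Leaving out Hmgb1-deleted tumours 2 and 5, or 3, 4 and 6, was chosen after seeing the data. Promoters came from RefSeq (GRCm38.p6) and gene neighbours from GENCODE (GRCm38), and no coordinates were carried to the files' build.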

Additional observations from a re-analysis of the deposited data

Results flagged for a closer look

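In 7 of the 70 sets of 6 tumours looked at (35 genes in each tumour group), 1 tumour stood far from the other 5. For a single set chance gives about 1 in 20. The 35 sets of a group share the same 6 tumours and are not independent, so 7 of 70 cannot be set against that rate. Hmgb1-deleted tumour 5 was high for 4 licensing, helicase and polymerase genes. These were Orc6 at 9.66 CPM (5.46 to 6.43 in the other 5), Cdt1 at 10.8 CPM (4.68 to 5.65), Gins1 at 5.15 CPM (2.96 to 3.60) and Pole at 8.02 CPM (2.95 to 4.10). Floxed tumour 1 was high for Mcm4, at 16.2 CPM against 5.92 to 8.56 in the other 5. Floxed tumour 5 was low for Rrm2, at 4.19 CPM against 10.6 to 16.2, and for Tyms, at 4.82 CPM against 8.51 to 9.60. These 3 tumours are also those with the highest or lowest median of the 35 genes in their groups, and the cause was not tested.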

How the results depend on the processing

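The count of 1 lower member, Ccne1, in Hmgb1-deleted against floxed tumours held under all alternatives run. The count of higher members there was 0, and became 1 with all 15 samples in 1 fit (Tk1), 1 without Hmgb1-deleted tumours 2 and 5 (Mcm10), 1 without Hmgb1-deleted tumours 3, 4 and 6 (E2f1), 2 with DESeq2 (Mcm10 and Tk1) and 0 to 1 with single libraries left out. The median log2 fold change of the 35 genes there was -0.23 without Hmgb1-deleted tumours 2 and 5 and ranged from -0.19 (without Hmgb1-deleted tumour 5) to 0.14 with single libraries left out. Library totals without a factor moved the median of all genes to 0.20, and the 35 genes to 0.31. In Hmgb1-deleted tumours against normal liver, the 11 higher members became 17 with upper-quartile scaling, 17 with DESeq2 and 20 without Hmgb1-deleted tumours 3, 4 and 6, and 6 to 17 with single libraries left out, the lowest without normal liver 1 (6) or 2 (7) and the highest without Hmgb1-deleted tumour 3 (17). The lower members, 0, became 1 without Hmgb1-deleted tumours 2 and 5 (Tk1), 1 without 3, 4 and 6 (Mcm10) and 0 to 1 with single libraries left out. The median there was 1.0 on library totals (all genes 0.33), 0.43 without Hmgb1-deleted tumours 2 and 5, and 0.50 to 0.76 with single libraries left out. In floxed tumours against normal liver, leaving out single libraries gave 10 to 18 higher and 2 to 3 lower members and medians of 0.43 to 0.67. With the replicate block, although the numbers do not pair the samples, 0 members were higher and 1 lower in Hmgb1-deleted against floxed tumours, 18 higher and 3 lower in floxed tumours against normal liver, and 10 higher and 1 lower (Mcm10) in Hmgb1-deleted tumours against normal liver, with medians of 0.02, 0.70 and 0.55.

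For the genes given in full and E2f1, signs turned in Hmgb1-deleted against floxed tumours, and none of the genes that turned was called there. On library totals these were Cdc6 at 0.062, Pold1 at 0.052, Fen1 at 0.076 and Chaf1b at 0.25. Without Hmgb1-deleted tumours 2 and 5 it was Lig1 at -0.20, and without 3, 4 and 6 they were Mcm10 at -0.24, Cdc6 at 0.051, Pold1 at 0.10, Fen1 at 0.036, Uhrf1 at 0.099 and Chaf1b at 0.35. With single tumours left out, Chaf1b ranged from -0.22 to 0.10 and turned without any 1 of Hmgb1-deleted tumours 3, 4 and 6 and floxed tumours 1 and 6. Over all 35 genes, the sign depended on which library was left out for 13 genes in Hmgb1-deleted against floxed tumours, 3 in floxed tumours against normal liver (Gins1, Rrm1 and Ccne2) and 2 in Hmgb1-deleted tumours against normal liver (Dnmt1 and Ccne2), 0 of them called. The cause was not tested. Depth limits the genes that rest on fewer than 20 counts in each normal liver, Cdc6, Gins2, Uhrf1, Ccne1 and Ccne2.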
